A study of Mus musculus with 9 samples.

Results

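Dazap2, Rcn2, Vps26c, Selenon and Cdk19 are 5 of the 11963 genes tested on the arrays of this study. They were chosen by their measured log2 values, as transcripts among those that fell most after NIH-3T3 cells received a miR-378-3p mimic, and their working name also holds that they did not rise with a miR-378-3p inhibitor. Each gene had 1 probe set, all 5 passed the level filter, and no probe set of theirs was shared with another gene. NIH-3T3 is a line of mouse fibroblasts. Its cells were transfected by DharmaFECT 1 with 25 nM of RNA and harvested after 48 hours. The RNA was a miR-378 mimic (3 arrays), a miR-378 inhibitor (3 arrays) or a RISC-free siRNA, the control (3 arrays). The mimic supplies the microRNA, the inhibitor blocks the cells' own copies, and the control siRNA is built to stay out of the silencing complex. No mimic or inhibitor of another sequence is among the samples, so responses to an active or blocking RNA as such and responses to miR-378-3p cannot be told apart here.

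A microRNA guides an Argonaute protein to transcripts that pair with its seed, the stretch near its 5′ end, and the bound transcript is translated less and degraded sooner. A transcript that a microRNA holds down is therefore expected to fall with a mimic. By this route, it rises with an inhibitor only where the cell's own microRNA was repressing it. Whether these 5 transcripts carry seed matches of miR-378-3p was not tested, because transcript sequences were not used here.

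The 5 genes act in different parts of the cell. Dazap2 encodes a small proline-rich adaptor that binds ubiquitin ligases and other regulators. Rcn2 encodes reticulocalbin 2, which binds calcium in the lumen of the endoplasmic reticulum and is a member of the CREC family of EF-hand proteins. Vps26c encodes a subunit of retriever, a complex that returns membrane proteins from endosomes to the cell surface. Selenon encodes selenoprotein N, an endoplasmic reticulum protein that contains selenocysteine and whose loss causes muscle disease. Cdk19 encodes a kinase of the Mediator complex and is the close paralog of Cdk8.

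RefSeq (GRCm38.p6) gave a promoter for 4 of the 5 genes, and Cdk19 had no entry. The 250 bases before the annotated start are printed for Dazap2 and Rcn2, the largest falls of the 5. They are given as background, and promoter activity was not tested. Capitals mark matches, on either strand, to the GC box, the CCAAT box and the E box. The Dazap2 window lies at chr15:100615412-100615661 and the Rcn2 window at chr9:56041595-56041844, both on the plus strand.
Dazap2: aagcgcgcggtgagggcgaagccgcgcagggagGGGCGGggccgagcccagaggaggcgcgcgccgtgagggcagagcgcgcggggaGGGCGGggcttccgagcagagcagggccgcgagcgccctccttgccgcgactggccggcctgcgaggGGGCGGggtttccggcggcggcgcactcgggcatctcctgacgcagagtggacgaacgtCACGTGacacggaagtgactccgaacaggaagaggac
Rcn2: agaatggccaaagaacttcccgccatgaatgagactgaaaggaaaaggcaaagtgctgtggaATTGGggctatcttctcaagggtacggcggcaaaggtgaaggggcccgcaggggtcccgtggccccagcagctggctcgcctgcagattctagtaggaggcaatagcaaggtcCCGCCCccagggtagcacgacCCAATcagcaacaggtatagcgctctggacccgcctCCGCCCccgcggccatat

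The windows differ in composition. That of Dazap2 was 74.4% G and C with 36 CpG pairs, and that of Rcn2 held 13 such pairs, against a median of 52.4% and 6 over all 32851 windows of the table. The window of Vps26c was 65.6% G and C with 27 CpG pairs, and that of Selenon 58.8% with 17. Each of the 4 windows held at least 1 GC box (GGGCGG), with 3 matches for Dazap2, 2 for Rcn2, 1 for Vps26c and 4 for Selenon, some of which overlap. Of all windows 32.7% hold a GC box. The Dazap2 window also held 1 E box (CACGTG, 6.02% of windows), which starts at base -37. The Rcn2 window held 2 CCAAT boxes (33.8% of windows). The Vps26c window held 1 match to CCGGAAG, an ETS factor motif (6.91% of windows). None of the 4 held TATAA, which 22.8% of windows hold. A match is a stretch of letters and says nothing on its own about binding.

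The first comparison asks which transcripts drop when miR-378-3p is supplied. It is the comparison that chose these genes, so their falls are described without a test. Values are log2 RMA values, and 1 unit is a doubling. Each SE is limma's, from a spread pooled over the 3 groups and moderated across genes, with n the arrays per group. Where the mimic arrays spread more than the others, most of all for Dazap2 and Cdk19, this SE understates the spread of the mimic group.

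Dazap2 stood at 7.91, 7.85 and 7.99 in controls 1, 2 and 3, at 7.02, 6.63 and 6.16 in mimics 1, 2 and 3, and at 8.02, 7.74 and 7.91 in inhibitors 1, 2 and 3. All mimic arrays lay below every other array, and the mimic arrays spread over 0.86 units where the controls spread over 0.14. The difference of the mimic mean from the control mean was -1.31 ± 0.17 (SE, n = 3), which leaves 40.3% of the control level. It was the lowest difference of all genes tested. Its SD of 0.43 within the mimic group was higher than that of 99.8% of genes.

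Rcn2 read 7.90, 7.92 and 7.99 in the controls, 7.05, 7.20 and 6.81 with the mimic and 8.07, 7.92 and 7.86 with the inhibitor. The inhibitor arrays lay around the controls, and the mimic arrays lay apart below both. The mimic difference was -0.92 ± 0.09 (SE, n = 3), or 52.9% of the control level, and ranked 5 among all genes from the lowest.

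Vps26c had values of 7.21, 7.11 and 7.20 in the controls, 6.34, 6.55 and 6.43 with the mimic and 7.13, 6.95 and 7.19 with the inhibitor. Its mimic arrays agreed most closely of the 5 genes, within 0.20 units, and mimic 1 was the lowest of them. The difference was -0.73 ± 0.07 (SE, n = 3), or 60.1% of the control level, at rank 7.

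Selenon was at 6.03, 6.12 and 6.26 in the controls, 5.49, 5.51 and 5.25 with the mimic and 6.44, 6.26 and 6.25 with the inhibitor. The mimic arrays again stood clear of the other 6 arrays. The difference was -0.72 ± 0.09 (SE, n = 3), or 60.6% of the control level, at rank 8.

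Cdk19 was at 7.59, 7.59 and 7.58 in the controls, 6.89, 7.27 and 6.48 with the mimic and 7.82, 7.56 and 7.57 with the inhibitor. The controls lay within 0.01 units, whereas the mimic arrays covered 0.79 units, a spread (SD 0.40) higher than that of 99.7% of genes. Mimic 2 was 0.31 below the control mean, mimic 1 0.69 and mimic 3 1.10. The mean difference was -0.70 ± 0.16 (SE, n = 3), or 61.4% of the control level, at rank 10.

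**Figure D1:**
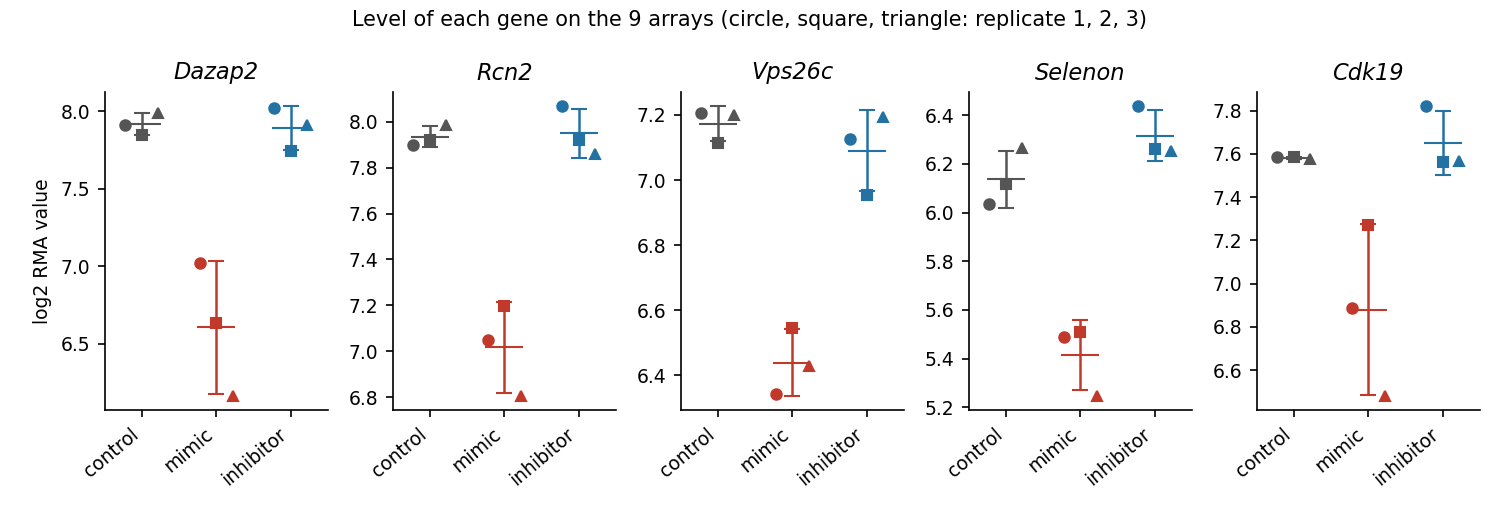
Log2 RMA value (vertical axes, each gene on its own scale, not starting at 0) of the 5 genes on the 3 control, 3 mimic and 3 inhibitor arrays, with group means and SD bars. In each panel the mimic arrays lie below the other 6 arrays, and they are most spread for Dazap2 (6.16 to 7.02) and Cdk19 (6.48 to 7.27).

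Over the whole table, limma called 425 of 11963 genes against the control (3.55%), 293 of them lower (2.45%) and 132 higher (1.1%, adjusted p under 0.05). After quantile normalization of the arrays 439 were lower and 335 higher. Mimic and control arrays did not overlap in 21.3% of genes, and in 12.7% the mimic arrays were the lower ones. All 5 genes met each of these conditions, which follows from how they were chosen. Dazap2 and Rcn2 had the lowest differences of the 5, while those of Vps26c, Selenon and Cdk19 were within 0.03 units of each other, less than any of their standard errors.

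Mimic 3 stood apart from the other arrays of its group. It had the lowest score on the first principal component over genes (-20.50, where the other mimic arrays were at -9.15 and -3.95), and inhibitor 1 had the highest (20.88). That component held 60.5% of the variance. Mimic 3 was also the lowest array for 4 of the 5 genes, Vps26c being the exception. Without mimic 3 the differences were -1.09 for Dazap2, -0.81 for Rcn2, -0.73 for Vps26c, -0.64 for Selenon and -0.50 for Cdk19. Deviations of the 9 arrays from their group means followed the component with r = 0.95 for Cdk19, 0.92 for Rcn2, 0.79 for Selenon, 0.72 for Dazap2 and 0.44 for Vps26c, as a description over 9 arrays that share their scaling. The part of whatever set mimic 3 apart in these falls was not tested.

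The genes also deviated together within groups, to unequal degrees. The correlation of deviations was 0.96 between Rcn2 and Cdk19, 0.89 between Rcn2 and Selenon and 0.74 between Selenon and Cdk19. Dazap2 had 0.72 with Selenon, 0.64 with Rcn2 and 0.58 with Cdk19. Vps26c had the lowest values, from 0.01 with Dazap2 to 0.39 with Cdk19. These are descriptions over 9 arrays with 3 group means removed.

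The second comparison asks which transcripts go up once the cells' own miR-378-3p is blocked. None of the 5 genes rose, and none fell (limma, smallest adjusted p = 0.209; 0 of 5 at an unadjusted p under 0.05), where 14.9% of all genes changed, with 11.1% higher (1330 genes) and 3.76% lower (450). After quantile normalization of the arrays the split was 1269 higher to 1022 lower, so the background of the list shares below is that of the deposited scaling. The rule that chose the genes did not use this comparison, but their working name did, so this describes the set more than it tests it. The inhibitor and control arrays overlapped for all 5 genes, whereas they did not overlap in 37.7% of genes tested. Only the intervals say how large a rise could have been missed.

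Selenon came nearest to a rise. Its inhibitor difference was 0.18 (95% interval -0.01 to 0.37; limma, adjusted p = 0.209), and 81.1% of genes had a lower one. Inhibitors 1, 2 and 3 lay 0.30, 0.12 and 0.11 above the control mean, but inhibitors 2 and 3 were below control 3. An inhibitor rise of up to 0.37 is thus within the interval.

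Cdk19 differed by 0.07 (-0.28 to 0.41; limma, adjusted p = 0.833), with inhibitor 1 at 0.24 above the control mean and inhibitors 2 and 3 at 0.02 below it. Without that array the difference was -0.02. Rcn2 differed by 0.01 (-0.19 to 0.22; limma, adjusted p = 0.943). Dazap2 differed by -0.02 (-0.40 to 0.35; limma, adjusted p = 0.945). The wide intervals of Dazap2 and Cdk19 include the spread of their mimic arrays, which enters the shared estimate of error.

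Vps26c was the lowest of the 5 with the inhibitor, at -0.08 (-0.25 to 0.08; limma, adjusted p = 0.517). A rise of more than 0.08 lies outside that interval, the tightest upper bound among the 5 genes. After quantile normalization of the arrays the inhibitor differences were -0.17 for Vps26c, -0.11 for Dazap2, -0.07 for Rcn2, -0.02 for Cdk19 and 0.08 for Selenon. Those of Rcn2 and Cdk19 thus changed sign, with none past the threshold (limma, smallest adjusted p = 0.102).

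**Figure D2:**
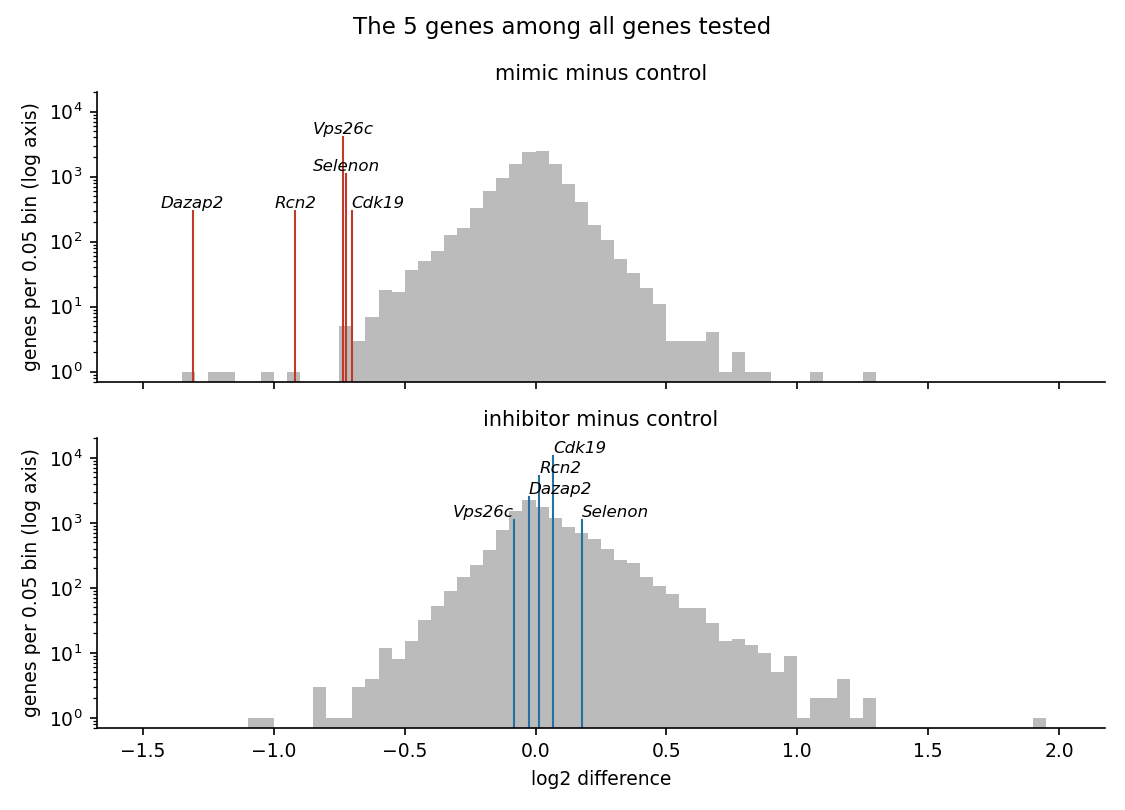
Number of genes (vertical axes, log scale) by log2 difference from the control (horizontal axis, bins of 0.05) for the mimic and the inhibitor, with a line at each of the 5 genes. The genes lie at the low end of the mimic distribution, from -1.31 to -0.70, and inside the bulk of the inhibitor distribution, from -0.08 to 0.18.

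The place of the 5 genes among the deepest falls shows what the working name separates. Of the 12 largest called falls whose groups did not overlap, these genes hold the places 1, 4, 6, 7 and 9. Zmpste24, the prelamin A protease, was at -1.21 with the mimic and 0.37 with the inhibitor. Skp2, a ubiquitin ligase subunit that promotes S phase, was at -0.74 and 0.35, and Ltbp1, which binds latent TGF-beta, at -0.71 and 0.32. In these 3 genes each inhibitor array lay above each control, although among them the rise passed the threshold in Skp2 alone (limma, adjusted p = 0.0137). All inhibitor arrays lay above all controls in 24.9% of the genes tested. Mir145a, a microRNA gene, was low with both RNAs, at -1.04 and -1.07. Just outside the 5 genes, with arrays of inhibitor and control overlapping as in them, were Spns1, a lysosomal transporter (-0.70 and 0.16), Arrdc4, an arrestin-like regulator of glucose uptake (-0.69 and 0.12), and Aacs, acetoacetyl-CoA synthetase (-0.67 and 0.03). Cdk19 (-0.70 and 0.07) is the last member inside. Both differences use the same control arrays.

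**Figure D3:**
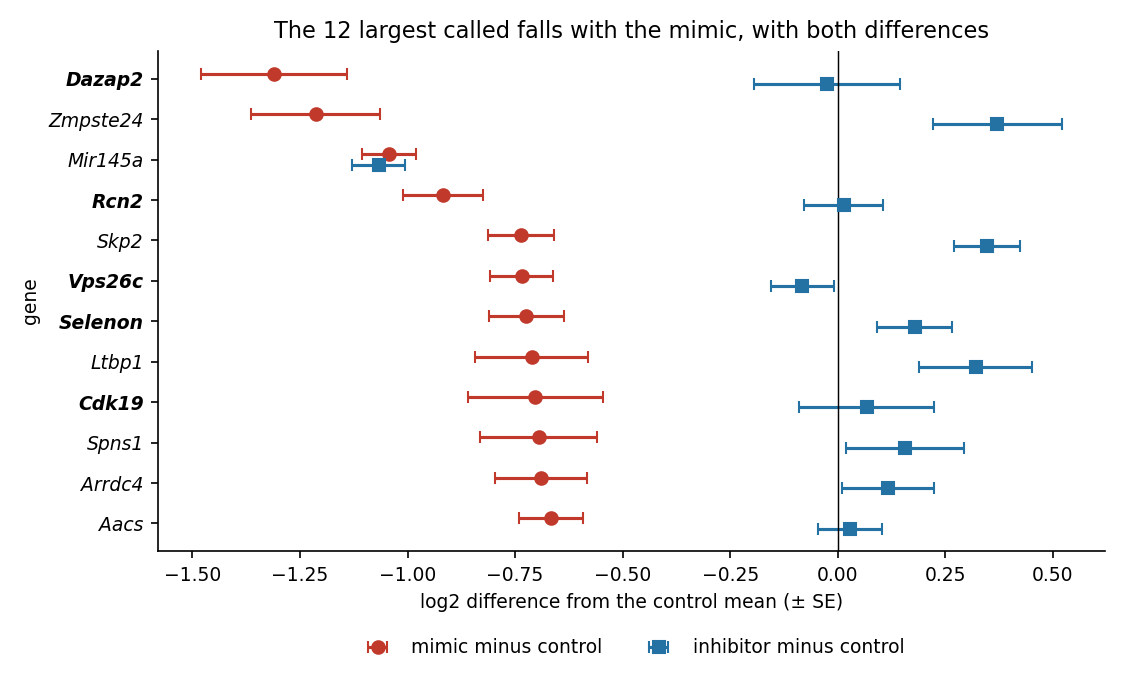
Log2 difference from the control mean (horizontal axis, ± SE), circles for mimic and squares for inhibitor, for the 12 largest called falls, the 5 genes in bold. The inhibitor squares of the 5 genes sit between -0.08 and 0.18, those of Zmpste24, Skp2 and Ltbp1 between 0.32 and 0.37, and that of Mir145a at -1.07.

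For each gene, the 3 genes with the highest Pearson r over the 9 arrays were listed, as a description with shared arrays and scaling. Nearest to Rcn2 were the proliferation marker Mki67 (r = 0.99, mimic difference -0.63), the spindle protein gene Tacc3 (0.99, -0.26) and the phosphatase gene Dusp10 (0.99, -0.40). Dazap2 was nearest to the condensin gene Ncapd2 (0.98, -0.39), Ckap2l, of the mitotic spindle (0.98, -0.54), and the proteasome gene Psma1 (0.97, -0.56). Next to Cdk19 were the clathrin adaptor gene Ap2b1 (0.99, -0.41), Dgcr2 (0.99, -0.30) and the centrosome kinase gene Nek2 (0.99, -0.40). Selenon was followed by Idi1, of sterol synthesis (0.99, -0.51), Zmpste24 (0.99, -1.21) and Dusp10 (0.99, -0.40). Vps26c was followed by Emc3, of the membrane protein insertase of the endoplasmic reticulum (0.98, -0.48), Ift140, of ciliary transport (0.98, -0.27), and Reep4 (0.97, -0.49). None of these 14 genes had an inhibitor difference beyond 0.13 in size other than Zmpste24. With group means removed, r stayed at 0.98 to 0.99 for the neighbours of Cdk19 and was 0.52 to 0.80 for those of Vps26c.

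Whether relatives and partners of the 5 genes moved with them was described from lists of known partners. With the mimic the medians of the 5 lists lay between -0.04 and 0.01, where the median of all genes tested was -0.01.

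Cdk19 works with Cdk8, cyclin C (Ccnc), Med12 and Med13 in the Mediator kinase module. Its paralog Cdk8 stood at 6.94, 6.92 and 6.98 in the controls, 6.62, 6.78 and 6.41 with the mimic and 7.64, 7.24 and 7.22 with the inhibitor. The groups were in order mimic, control, inhibitor without overlap. Over all genes tested, all mimic arrays lay below the controls in 12.7%, and all inhibitor arrays above them in 24.9%. The mimic difference of -0.34 ± 0.12 (SE) did not pass the threshold (limma, adjusted p = 0.164). With the inhibitor Cdk8 rose by 0.42 ± 0.12 (SE; limma, adjusted p = 0.0366), a call that ended without control 1, 2 or 3, mimic 1 or inhibitor 1 (adjusted p of 0.0576 to 0.111), after median centring (0.0613) and with no level filter (0.0788). Ccnc, Med12, Med13 and Med13l lay between -0.01 and 0.06 with the mimic. With the inhibitor Med13 was at 0.44 and Med13l at 0.26, each with all inhibitor arrays above the controls. Med12 was at 0.10 and Ccnc at 0.09, with overlap. None of these inhibitor differences passed the threshold (limma, adjusted p of 0.055 for Med13 to 0.526 for Ccnc). Of 31 Mediator subunits tested besides Cdk19, none was called with the mimic (limma, 6 at an unadjusted p under 0.05, median -0.03). After quantile normalization 1 rose with the mimic, as did 1 without mimic 3. Without both mimic 3 and inhibitor 1, 2 rose and 1 fell. With the inhibitor Med14, the backbone subunit (0.53), Cdk8 and Med22 (0.21) rose, 3 of 31 or 9.68%, with a median of -0.00. Of all genes 14.9% were called and 11.1% called higher. The call of Med14 ended without control 1 or 2 or inhibitor 1, and that of Med22 without control 2 or 3, mimic 1 or any 1 of the inhibitors (adjusted p of up to 0.0689 and 0.142). Med22 also lost its call after quantile normalization, at a difference of 0.12 (adjusted p = 0.289), and with an intensity trend (0.0688). The list's inhibitor count ran from 0 without control 2 to 7 without mimic 3, was also 7 without both mimic 3 and inhibitor 1, and was 5 after quantile normalization (4 rises and 1 fall).

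Selenon belongs to the selenoproteins, which are made by reading a UGA codon as selenocysteine. Eefsec, the elongation factor that delivers selenocysteine to the ribosome, stood at 7.03, 6.98 and 7.02 in the controls, 6.61, 6.66 and 6.30 with the mimic and 7.08, 7.04 and 7.03 with the inhibitor. Its mimic arrays lay below the other 6, as those of Selenon did. Eefsec fell by 0.49 with the mimic (SE 0.08; limma, adjusted p = 0.0106), a call that ended without control 1 or 3 (adjusted p of up to 0.0619). The glutathione peroxidase gene Gpx1 (-0.33) and Selenoh (-0.31) fell as well, and Selenos, of endoplasmic reticulum protein degradation, rose by 0.32 (limma, adjusted p of at most 0.0285). The Gpx1 call ended without control 1 or 3, mimic 1 or 2 or inhibitor 3, that of Selenoh without control 1 or 3 and that of Selenos without control 1 (adjusted p of up to 0.126, 0.1 and 0.0524). Those of Gpx1 and Selenoh also ended after median centring (adjusted p = 0.0516 and 0.0513) and in a fit of 6 arrays (0.068 and 0.0605). Called with the mimic were thus 4 of the 23 tested, 17.4% against 3.55% of all genes, with a median of -0.01, and without control 1 the count was 0.

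With the inhibitor 10 of these 23 genes changed, 43.5% against 14.9% of all genes, in both directions and with a median of -0.01. Selenoi, a phospholipid synthesis enzyme, rose by 0.69, and Txnrd1, cytosolic thioredoxin reductase, by 0.65. The selenophosphate synthetase gene Sephs2 rose by 0.33 and Selenot by 0.30. Msrb1, a methionine sulfoxide reductase, fell by 0.43, Gpx1 by 0.39, Selenom by 0.34, Selenow by 0.33, the lipid peroxidase gene Gpx4 by 0.28 and the selenium carrier gene Selenop by 0.26 (limma, adjusted p of at most 0.0279 for the 10). The call of Gpx4 ended without control 1 or 3 or inhibitor 1 or 3, and that of Selenow without any 1 of the controls or inhibitor 2 or 3 (adjusted p of up to 0.0801 and 0.103). Selenow was also not called after median centring (0.0762) or with no level filter (0.0551). The count ran from 8 to 11 with an array left out. Selenon itself, which the list leaves out, stood at 0.18 and did not pass. The 6 genes of the list not tested, Gpx3, Dio1, Dio2, Dio3, Selenok and Selenov, were below the level filter.

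Vps26c forms retriever with Vps35l and Vps29, beside the CCC complex of Ccdc22, Ccdc93 and COMMD proteins. Vps35l was at -0.04 with the mimic, Vps29 at -0.10, Ccdc22 at 0.02 and Ccdc93 at -0.23 (limma, adjusted p of 0.0603 for Ccdc93). The retromer paralogs Vps26a and Vps26b were at -0.04 and 0.04. The retromer subunit Vps35 read 7.90, 7.90 and 8.04 in the controls, 7.76, 7.83 and 7.58 with the mimic and 8.20, 8.10 and 8.19 with the inhibitor. These 3 groups did not overlap, but neither difference passed the threshold (-0.22 and 0.21, with limma adjusted p = 0.139 and 0.0752). All mimic arrays were lower than the controls in 12.7% of all genes, and all inhibitor arrays higher in 24.9%. Of 29 genes of retriever, retromer, CCC and WASH tested, none was called with the mimic (limma, 8 at an unadjusted p under 0.05, median 0.01). After quantile normalization 2 rose and 2 fell. The mimic differences ran from -0.38 for Washc4 to 0.29 for Dennd10 (limma, adjusted p = 0.133 and 0.0789). With the inhibitor the sorting nexin Snx5 rose by 0.18 and Snx1 fell by 0.24 (limma, adjusted p = 0.0238 and 0.0353), 6.90% of the list against 14.9% of all genes, with a median of -0.03. After quantile normalization Snx5 was at 0.12 and no longer called (adjusted p = 0.105), and the list had 6 falls and no rise, while Snx1 lost its call after median centring (0.0831) and with no level filter (0.0508). With an intensity trend neither was called (adjusted p = 0.0511 and 0.0533). The call of Snx5 ended without control 1 or 2 or inhibitor 1 or 3, and that of Snx1 without any 1 of the controls, mimic 1 or inhibitor 3 (adjusted p of up to 0.102 and 0.135). The count ran from 0 without control 1 to 7 without mimic 3. Without mimic 3 and inhibitor 1 together, 4 genes changed with the mimic and 5 with the inhibitor.

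Rcn2 has 4 CREC relatives on the arrays. Rcn1 read 8.28, 8.29 and 8.20 in the controls and 8.52, 8.51 and 8.38 with the mimic, so that its mimic arrays all lay higher, as did those of Rcn3 and Calu. The differences were 0.22 for Rcn1, 0.18 for Rcn3 and 0.18 for Calu, none past the threshold (limma, adjusted p = 0.0538, 0.18 and 0.236), and -0.06 for Sdf4. Groups with all mimic arrays higher made up 8.67% of all genes. With the inhibitor the 4 relatives lay between -0.20 (Rcn3) and 0.06 (Rcn1), none past the threshold. Of 19 CREC and endoplasmic reticulum calcium-binding genes tested, 1 rose with the mimic, 5.26% against 3.55% of all genes called and 1.1% called higher. The list median was -0.00. The prolyl isomerase gene Fkbp7 was the gene called, with a rise of 0.39 (limma, adjusted p = 0.0202). That call ended without any 1 of the controls and without mimic 1 (adjusted p of up to 0.101) and after median centring (0.0582). Fkbp14 had the highest mimic difference of the list, 0.48, with all mimic arrays higher, but missed the threshold (limma, adjusted p = 0.0576). With no level filter, with the filter at the 60th percentile or with an intensity trend, 2 genes rose. After quantile normalization 3 genes rose, and without mimic 3, as without mimic 3 and inhibitor 1, 6 genes were called. With the inhibitor 15.8% rose, against 14.9% of all genes called and 11.1% called higher, with a list median of 0.03. The genes that rose were the calcium pump gene Atp2a2 (0.46), the chaperone gene Hspa5 (0.43) and Canx, which encodes calnexin (0.31) (limma, adjusted p of at most 0.0105). Their calls held in each fit with an array left out. The count ran from 3 without control 1 to 9 without mimic 3, was 7 without mimic 3 and inhibitor 1, of which 4 were falls, and was 8 after quantile normalization, again with 4 falls.

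Dazap2 is reported to bind NEDD4-type ubiquitin ligases and the kinase Hipk2, which acts on p53. Hipk2 read 5.83, 6.07 and 5.81 in the controls, 5.68, 5.82 and 5.54 with the mimic and 6.51, 6.58 and 6.43 with the inhibitor. Its inhibitor arrays stood clear above the rest, and Hipk2 rose by 0.60 ± 0.09 (SE; limma, adjusted p = 0.00154), while the mimic arrays overlapped the controls (-0.23; adjusted p = 0.221). The ligase genes Wwp1 (0.47), Smurf1 (0.37) and Nedd4l (0.34) also rose with the inhibitor (limma, adjusted p of at most 0.0473). The calls of Wwp1 and Smurf1 ended without any 1 of the controls, mimic 1 or inhibitor 1 or 3, and that of Nedd4l without control 1 or 2 or inhibitor 1 (adjusted p of up to 0.152, 0.133 and 0.101). Wwp1 and Smurf1 were also not called after median centring (0.0745 and 0.0641) or with no level filter (0.103 and 0.0809). In all 4 of 13 partners tested rose with the inhibitor, 30.8% against 14.9% of all genes called and 11.1% called higher. The list median was 0.14 against 0.01 for all genes, and the count was 1 without control 1. None was called with the mimic (limma, 3 at an unadjusted p under 0.05, median -0.04). Dazap1 was at -0.07 with the inhibitor and -0.09 with the mimic.

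**Figure D4:**
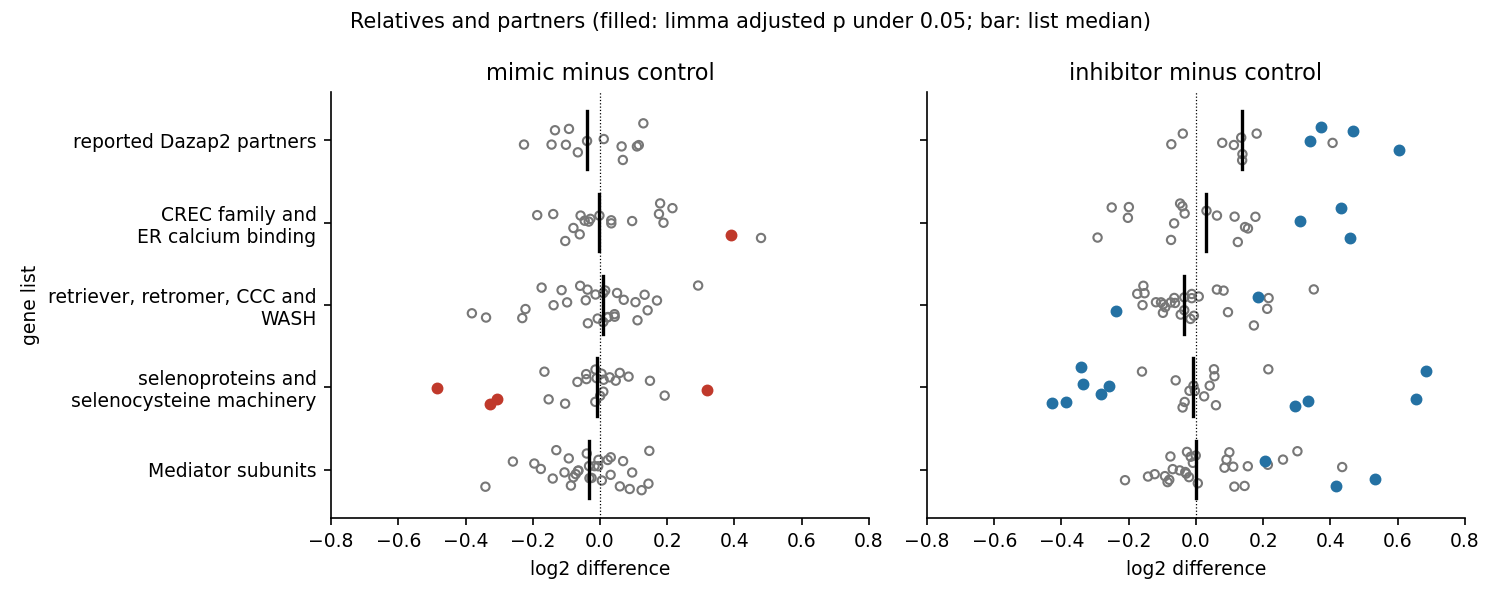
Log2 difference from the control (horizontal axes) of each tested relative or partner gene in 5 lists, for the mimic at left and for the inhibitor at right. Filled points passed the limma threshold and bars are list medians, which run from -0.04 to 0.01 at left and from -0.03 to 0.14 at right.

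The arrays showed the labelled cell type. All 10 fibroblast markers checked, among them Col1a1, Col1a2, Vim and Pdgfra, passed the level filter, and the mean of the list lay between 9.91 and 10.08 on each of the 9 arrays. Of these 10, Thy1 rose by 0.38 with the mimic (limma, adjusted p = 0.00823) and Col3a1 fell by 0.22 with the inhibitor (0.0427). Of 14 markers of leukocytes, epithelium, endothelium and muscle, 6 passed, and none was called in either comparison. Those that passed were Actc1 (mean 4.73), Cd68 (4.19), Krt8 (4.18), Krt18 (4.04), Csf1r (4.02) and Pecam1 (3.98). Actc1, a muscle marker, stood higher than 61.4% of genes with a single-gene probe set. Ptprc, Adgre1, Epcam, Cdh1, Cdh5, Kdr, Myog and Des were below the filter. The mean levels of these 4 marker groups lay between 3.66 and 4.09 on each array, near the array medians of 3.94 to 4.03.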

How the data were processed

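Expression in NIH-3T3 cells was profiled on 9 Affymetrix arrays, 3 per group. The authors deposited log2 values, 1 per probe set and array, made with Partek 6.5 and RMA per the submitters' processing notes. The log base follows from RMA and the range of 2.64 to 12.5. The sources used here do not name the probe sets' genome build. Of 28853 probe sets, 21789 had 1 gene in the platform annotation, 1621 several and 5443 none. The probe set with the highest mean stood for a gene. Gene IDs of 19856 of 19938 genes matched a RefSeq table (GRCm38.p6, for names only). Genes under the 40th percentile (3.86) were left out, and 11963 were tested.

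All 9 arrays entered 1 linear model of group means (limma 3.58.1, R 4.3.3), with Benjamini-Hochberg adjustment over all genes tested and a threshold of 0.05. Every adjusted p comes from limma, and from this model unless another fit is named beside it. The test was tried on simulated data, and standard errors and intervals are limma's. The number of arrays limits the precision. Nothing in the labels tells whether replicates were separate cultures. The p-values therefore cover only the spread among these arrays, which may be technical. No pair of arrays shared over 3.58% of its values. The replicate numbers were not used as a pairing in this model, and whether they mark one is not known.

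The 5 genes, the partner lists and the tests were chosen with earlier results of these data known. Named are the 5 genes, the 12 largest called falls, the 3 nearest genes of each, fixed relatives and partners, and up to 6 called genes of a list. Promoters were taken from RefSeq (GRCm38.p6), and matplotlib 3.10.9 (Python 3.11.15) drew the figures.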

Additional observations from a re-analysis of the deposited data

How the results depend on the processing

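Level filter, scaling, fits of 6 arrays, the replicate block, an intensity trend, the mean of all probe sets and leaving out each array were tried, and a fit without mimic 3 and inhibitor 1 was added after seeing the data. In these 18 fits the mimic differences kept their sign. Where an array is left out, the choice of genes with groups that do not overlap fixes that sign. The level filters, fits of 6 arrays, block, trend, mean of all probe sets and a left-out inhibitor array cannot alter these mimic differences. Only the scaling and a left-out control or mimic array could move them, so the other fits do not check them. Dazap2 and Cdk19 moved most, without mimic 3. With an array left out they ran from -1.52 to -1.09 for Dazap2, -1.01 to -0.81 for Rcn2, -0.79 to -0.69 for Vps26c, -0.78 to -0.64 for Selenon and -0.90 to -0.50 for Cdk19. No inhibitor difference of the 5 genes passed the threshold in any of them (limma, adjusted p of 0.0877 to 0.996); with an array left out they ran from -0.09 to 0.05 for Dazap2, -0.04 to 0.06 for Rcn2, -0.13 to -0.01 for Vps26c, 0.12 to 0.24 for Selenon and -0.02 to 0.11 for Cdk19. The number of genes changed with the mimic was 774 after quantile normalization (335 rose and 439 fell), 231 after median centring, 248 in the fit of 6 arrays, 911 without mimic 3 and inhibitor 1 (484 rose and 427 fell), and 133 (without control 1) to 582 (without mimic 3) with an array left out. With the inhibitor it ran from 974 (without control 1) to 2790 (without mimic 3), and after quantile normalization 1269 rose and 1022 fell. The cause was not tested. The replicate block gave 289 genes with the mimic and 1575 with the inhibitor. It ended the inhibitor calls of Wwp1 (adjusted p = 0.0635) and Snx1 (0.0583). Correlations of same-numbered deviations from the controls ran from -0.22 to 0.22, and those of differently numbered arrays from -0.26 to 0.24. These give no sign of a pairing, but with 3 arrays a group they cannot exclude one. The level of each gene rests on 1 probe set, and 3 arrays a group limit what small differences can be seen.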
